A study of Mus musculus with 30 samples.

Results

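The NF-kB subunits and their inhibitors were followed through the germinal centre and plasma cell stages of a mouse B cell response to a worm. The members were named by symbol: the 5 subunit genes Rel, Rela, Relb, Nfkb1 and Nfkb2, and the 5 inhibitor genes Nfkbia, Nfkbib, Nfkbie, Nfkbid and Nfkbiz. Of these 10 genes, 9 had a value, each from 1 probe set, among 19937 genes on the array. Nfkb1 was not analysed here. All 9 measured members passed the filter on dim genes in both experiments.

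All cells came from CeGFP BALB/c mice, a knock-in strain with an IRES-GFP cassette in the 3' untranslated region of the epsilon heavy chain gene, so that GFP marks cells with a rearranged epsilon locus. Every mouse, including those that gave the naive cells, was infected with Nippostrongylus brasiliensis, and mesenteric lymph nodes were taken on day 10. Each array held RNA from a pool of 3 mice, so single animals cannot be separated and p-values measure the spread between pools. The first experiment had 18 arrays: naive B cells (3 arrays, gated as B220+ and negative for CD95, CD138, IgG1 and IgE), germinal centre (GC) cells gated as B220+ CD95+ CD138- in 3 groups of 3 arrays each (IgE-positive and GFP-positive, IgG1-positive and GFP-positive, IgG1-positive and GFP-negative), and plasma cells (PC) gated as CD138+, from GFP-positive IgG1 cells (2 arrays) and GFP-positive IgE cells (4 arrays). The second experiment had 12 arrays of IgG1 GC cells, 3 for each of 4 groups, divided into dark zone cells (DZ, high in CXCR4 with little CD86) and light zone cells (LZ, high in CD86 with little CXCR4) and, within each zone, into GFP-positive and GFP-negative. Naive controls came from infected lymph nodes, and no uninfected group was analysed here.

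NF-kB factors are dimers of Rel-family proteins. Rel (c-Rel), Rela (RelA) and Relb (RelB) carry an activation domain, and Nfkb1 and Nfkb2 encode long precursors that are processed into DNA-binding subunits. The classical inhibitors IkB-alpha (Nfkbia), IkB-beta (Nfkbib) and IkB-epsilon (Nfkbie) hold dimers in the cytoplasm until the IKK kinases mark them for destruction, and the atypical nuclear proteins IkB-NS (Nfkbid) and IkB-zeta (Nfkbiz) bind dimers in the nucleus and alter which genes they control. In B cells the classical route runs mainly from the antigen receptor, CD40 and Toll-like receptors, and the alternative route, through NIK (Map3k14) and the Nfkb2 precursor with RelB, from CD40 and the BAFF receptor. Several of these genes, Nfkbia, Nfkbie, Nfkb2 and Rel among them, are known as targets of NF-kB itself.

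The start regions of the genes are shown where they hold a kB consensus match. The windows are those of RefSeq on GRCm38.p6, 250 bases before to 50 after each annotated start, and 7 members had one (Rel, Rela, Nfkb2, Nfkbia, Nfkbib, Nfkbie and Nfkbid). The kB consensus (GGG, a purine, any pair of bases, a pair of pyrimidines, CC) was searched on both strands. Each sequence runs 5' to 3' on the strand of its gene, with the match in capitals.
Rel, chr11:23771042-23771071, minus strand: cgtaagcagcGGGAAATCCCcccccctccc
Nfkb2, first start, chr19:46304688-46304717, plus strand: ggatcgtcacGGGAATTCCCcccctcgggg
Nfkb2, second start, chr19:46305695-46305724, plus strand: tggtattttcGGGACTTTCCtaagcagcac
Nfkbia, chr12:55492657-55492686, minus strand: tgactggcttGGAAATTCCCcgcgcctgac
Nfkbie, chr17:45555584-45555613, plus strand: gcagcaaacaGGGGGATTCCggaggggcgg
Nfkbid, second start, chr7:30422170-30422199, plus strand: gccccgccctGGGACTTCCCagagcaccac
Thus 5 of the 7 members had a match, against 9.55% of 27025 genes with a window and 8.459% of 32851 windows of the same length. The matches of Rel and of the first Nfkb2 start each overlap a further match shifted by 1 base. The first Nfkb2 window held 3 matches in all, and 0.186% of all windows held 3 or more. These letters were not found in the windows of Rela and Nfkbib. A match describes the letters in the window and does not show binding, and its part in the changes given below was not tested.

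Array medians lay between 5.28 and 5.47 log2 units, and arrays of 1 group correlated at 0.891 to 0.975. The arrays that stood apart from their groups were naive replicate 1 and replicate 3 of GFP-positive IgG1 GC. The labels were checked against marker lists. Of the 7 B cell markers measured, 7 lay above the array median on every array. The germinal centre list was higher in IgE GC than in naive cells for 7 of 7 genes tested, and the plasma cell list was higher in PC than in GC cells for 8 of 8 genes in both isotypes. T cell markers summed to 272 to 607 on the linear scale across the groups, against 5703 to 21292 for the B cell list. Of 8 T cell genes, 2 to 5 lay above the array median on all arrays of a group, the 5 in GFP-positive LZ cells, and Cd4 and Il7r in no group.

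**Figure D1:**
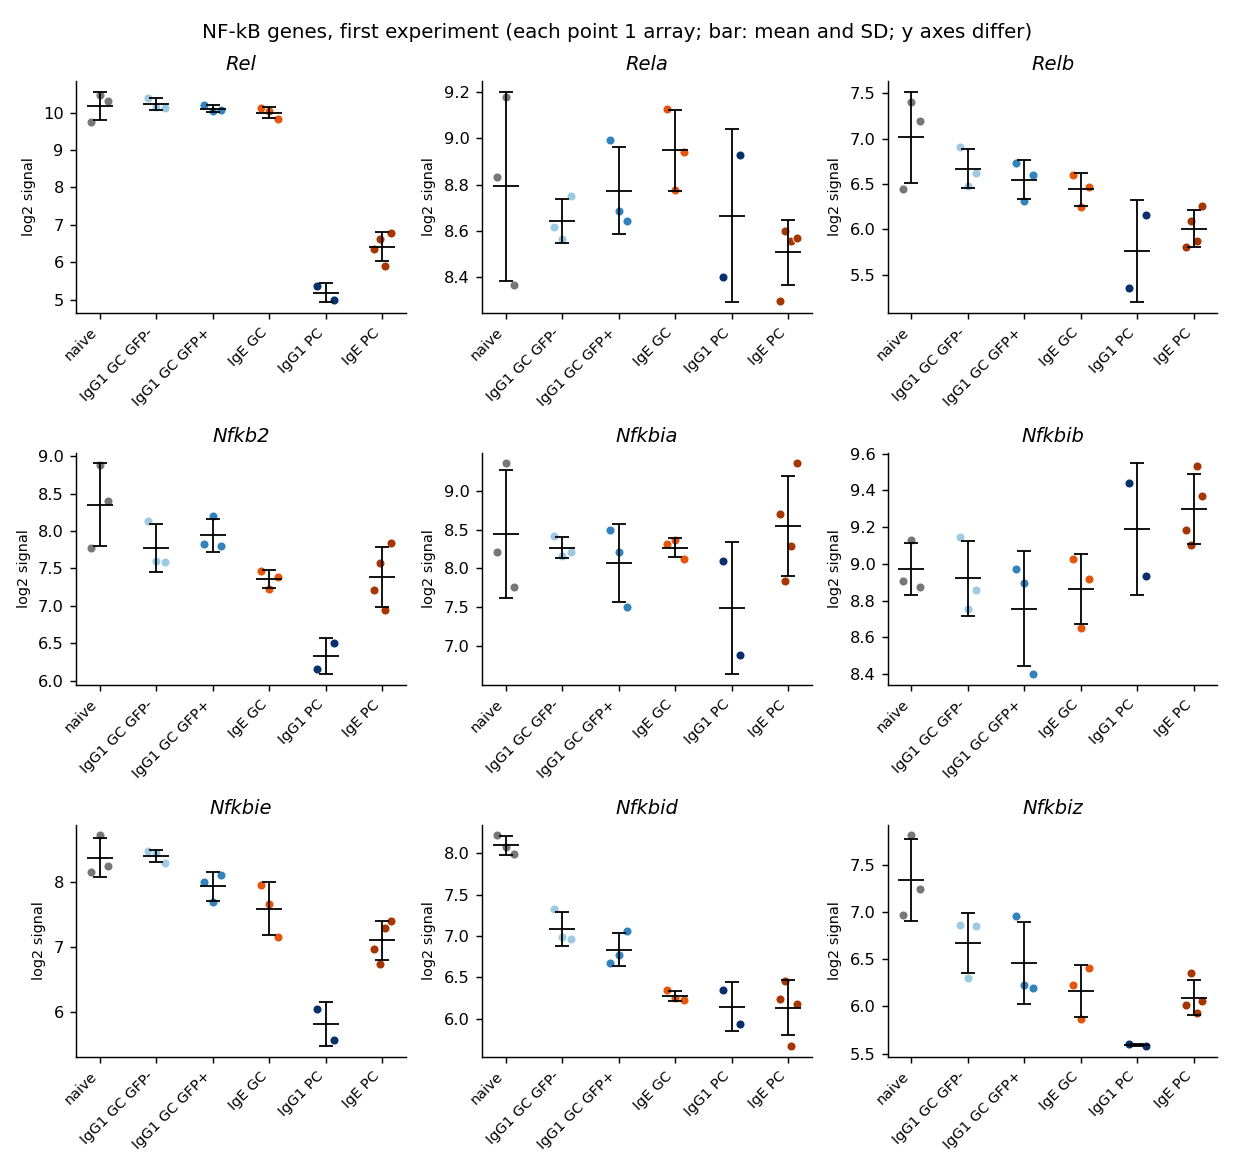
Log2 signal (y axis, a separate scale in each panel) of the 9 measured NF-kB genes in the 6 groups of the first experiment. Each point is 1 array, the long bar is the group mean and the whiskers are the SD. Rel lay between 9.75 and 10.48 in naive and GC arrays and between 5.00 and 6.78 in PC arrays.

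The widest change was in Rel (probe set 10384725), the subunit that mature B cells use after antigen receptor and CD40 signals. Its level was high in naive cells (9.75, 10.48 and 10.32), in GFP-negative IgG1 GC (10.40, 10.15 and 10.12), in GFP-positive IgG1 GC (10.21, 10.04 and 10.07) and in IgE GC (10.12, 10.05 and 9.83). These 4 groups overlapped. In IgE PC the arrays read 6.36, 6.61, 5.89 and 6.78, and in IgG1 PC 5.37 and 5.00, so that all 6 PC arrays lay below all 12 others and the PC groups did not overlap each other. The share of all genes with such splits was not counted. The lowest array, IgG1 PC replicate 2, was the only one of 18 on which Rel fell below the array median, so this value sits near the bottom of the measured range.

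From GC to PC, Rel fell by 3.59 ± 0.21 (SE) log2 units in IgE cells (12.1-fold, adjusted p = 3.41e-09) and by 4.93 ± 0.25 in IgG1 cells (adjusted p = 1.64e-09; limma, Benjamini-Hochberg over all 12098 genes tested). The IgG1 PC values of 5.37 and 5.00 lay at array medians of 5.35 and 5.35, so the size of the IgG1 difference is limited by the low end of the scale and no fold is given. Both changes passed the test in every alternative run, 14 for IgE and 12 for IgG1 cells. In IgE PC against IgE GC, Rel was the only 1 of 9 members called, and none was higher. Over all genes in that comparison, 10.2% were called higher and 13.4% lower. In IgG1 PC against GFP-positive IgG1 GC, 5 of 9 members were called lower and none higher, against 8.32% higher and 13.1% lower of all genes. The median difference over the 9 members was -0.14 in IgE and -0.79 in IgG1 cells, against -0.03 and -0.01 over all genes.

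The other 4 members called in IgG1 PC were Nfkb2 and 3 inhibitors. Nfkb2 (probe set 10463599), which encodes the precursor of the alternative route, read 7.83, 8.20 and 7.80 in GFP-positive IgG1 GC and 6.16 and 6.50 in IgG1 PC. The groups did not overlap (share of all genes not counted), and Nfkb2 fell by 1.61 ± 0.30 (adjusted p = 0.000869). In IgE cells the same gene read 7.46, 7.23 and 7.39 in GC and 7.21, 7.57, 6.94 and 7.85 in PC, which overlap (difference 0.03 ± 0.25, adjusted p = 0.962). Nfkbie (probe set 10445412), a classical inhibitor that preferentially holds c-Rel and RelA dimers, lay between 7.69 and 8.11 in GFP-positive IgG1 GC (mean 7.94) and read 6.05 and 5.57 in IgG1 PC, and fell by 2.12 ± 0.26 (adjusted p = 1.45e-05). Nfkbie in IgG1 PC replicate 2 lay near the array median of 5.35, so this size may be limited too. Its IgE values were 7.96, 7.66 and 7.15 in GC and 6.97, 6.74, 7.30 and 7.41 in PC, a difference of -0.49 ± 0.22 that was not called (adjusted p = 0.128), and that passed the test without IgE GC replicate 3 (adjusted p = 0.0402).

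Among the nuclear inhibitors, Nfkbiz fell by 0.87 ± 0.28 (adjusted p = 0.0336) and Nfkbid by 0.69 ± 0.22 (adjusted p = 0.0319) in IgG1 PC against GFP-positive IgG1 GC. The Nfkbiz arrays of IgG1 PC (5.60 and 5.58) lay near the array medians of 5.35, so the Nfkbiz size may be limited too. The Nfkbid call was lost without GC replicate 2 or 3 or without PC replicate 2 (adjusted p 0.0572, 0.098 and 0.275), after further quantile normalization (0.109) and without the 2 arrays that stood apart (0.0858), and the Nfkbiz call without GC replicate 1 or either PC array (adjusted p 0.149, 0.118 and 0.126). Both were also lost when only these groups were fitted (0.0954 and 0.0815). Relb missed the threshold (-0.79 ± 0.28, adjusted p = 0.0529) and passed it without PC replicate 2 (adjusted p = 0.017). Nfkbia, the inhibitor that NF-kB induces to shut itself off, differed by -0.58 ± 0.46 in IgG1 and by 0.28 ± 0.39 in IgE cells, neither called. Its PC arrays spread widely, from 7.83 to 9.35 in IgE PC and at 8.09 and 6.89 in IgG1 PC.

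These PC changes went together with a change of cell identity and with other markers. The B cell list was lower in 7 of 7 genes in IgE PC and in 6 of 7 in IgG1 PC, and its summed linear signal fell in range from 14830 to 18541 in the GC groups to 5703 to 6656 in PC. The neutrophil and eosinophil list, of which 4 genes were tested, had 1 gene higher in PC of each isotype, with sums of 348 to 355 in IgG1 PC, 218 to 475 in IgE PC and 168 to 218 in GC. In IgG1 PC 1 of 5 macrophage and dendritic cell genes and 1 of 2 natural killer cell genes were also higher, and in both isotypes 1 of 7 stromal genes was lower. Their part in the result was not tested. In sorted bulk samples, fewer cells that hold a transcript and less of it per cell cannot be told apart.

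**Figure D2:**
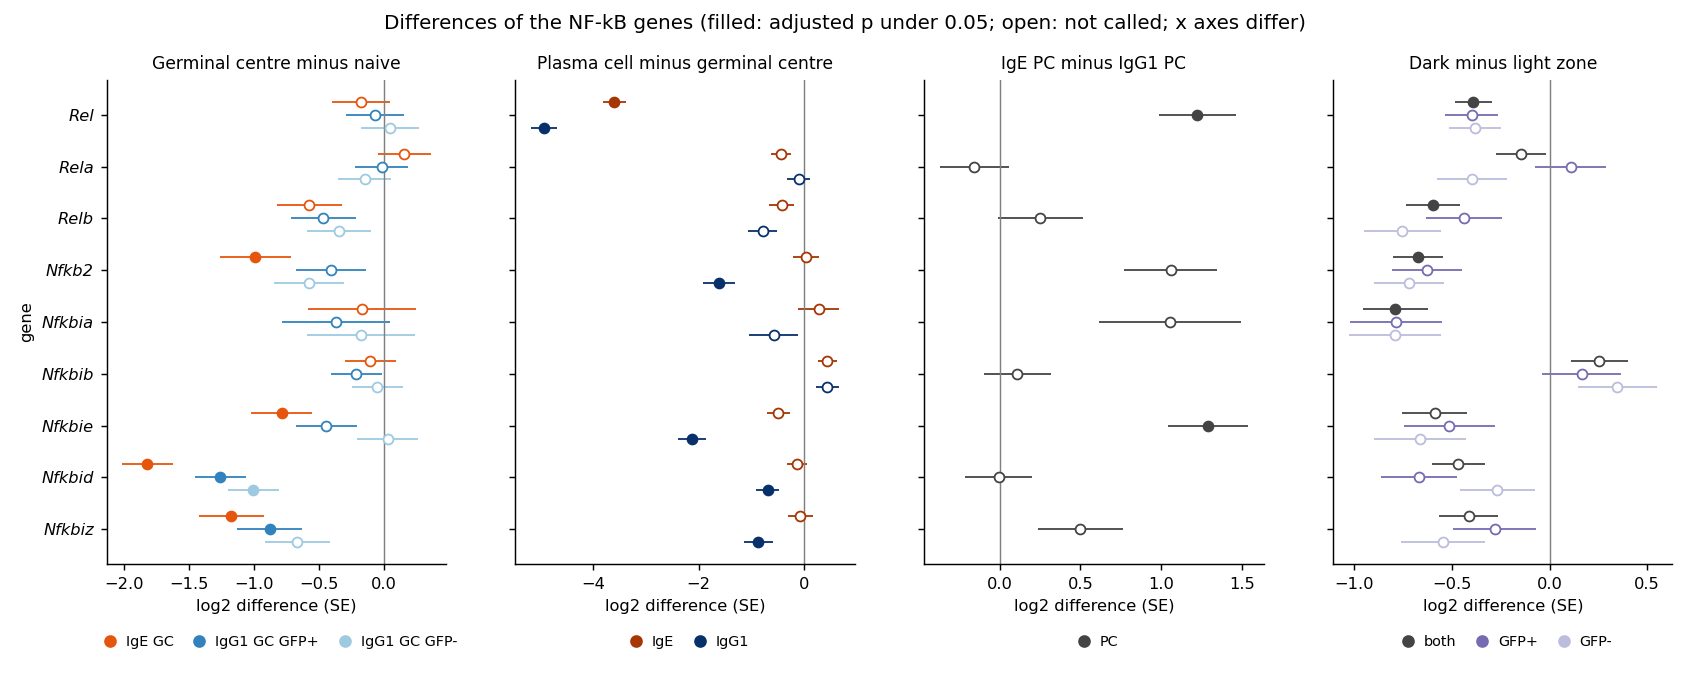
Log2 difference (x axis, a separate scale in each panel) of the 9 members (y axis) in 4 sets of comparisons, with bars of 1 SE from the fit. Filled points passed an adjusted p of 0.05 and open points did not. Rel stands at -3.59 and -4.93 in the second panel, and 8 of 9 members lie below 0 in dark minus light zone over both GFP classes.

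Plasma cells of the isotypes were then set against each other. In IgE PC, 2 of 9 members were called higher than in IgG1 PC and none lower, while 0.785% of all genes were called higher and 0.174% lower. Higher calls made up 81.9% of all calls, and 71.3% after further quantile normalization. Rel was higher by 1.22 ± 0.24 (adjusted p = 0.0192) and Nfkbie by 1.29 ± 0.25 (adjusted p = 0.0176). In both genes all 4 IgE PC arrays lay above the 2 IgG1 PC arrays. The IgG1 PC values of Rel lay near the array medians, so the size of its difference is limited by the low end of the scale. Nfkbie in IgG1 PC replicate 2 (5.57) lay near the array median too, so its size may also be limited. Nfkb2 lay 1.06 ± 0.29 above (adjusted p = 0.0898, and 0.0479 without the 2 arrays that stood apart), also without overlap, and Nfkbia 1.05 ± 0.44 above (adjusted p = 0.311), with overlap. The share of all genes without overlap at 4 against 2 arrays was not counted, so no conclusion is drawn from these orders. Markers of other B cell stages were higher in IgE PC too: 2 of 7 germinal centre genes (sums 2143 to 2358 against 1812 to 2094), 1 of 7 naive and recirculating genes (1157 to 2043 against 697 to 948) and 1 of 8 plasma cell genes, and their part in the result was not tested. Without IgG1 PC replicate 2 neither Rel nor Nfkbie was called (adjusted p 0.164 and 0.169), nor when only the PC arrays were fitted (0.202 and 0.168), so these calls rest on 2 IgG1 PC arrays and on the spread of the other groups.

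Whether the step from GC to PC differed between the isotypes was tested as an interaction, which none of the 9 members passed in limma. Over all genes, 0.0661% were called with a more positive step in IgE and 0.0248% with a more negative one. At an unadjusted p under 0.05 the interaction held 822 of 12098 genes and 4 of the 9 members. The step was less negative in IgE cells by 1.63 ± 0.34 for Nfkbie (adjusted p = 0.0954), by 1.64 ± 0.39 for Nfkb2 (0.209) and by 1.33 ± 0.33 for Rel (0.235). The size for Rel is limited by its low IgG1 PC values, and that for Nfkbie may be too. The smaller number of members called in IgE PC is therefore not shown to be a difference between isotypes.

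Around the members, some of the receptors and adaptors that feed NF-kB differed between GC and PC, where 10.2% and 8.32% of all genes were higher and 13.4% and 13.1% lower in IgE and IgG1 cells. Of 13 NF-kB-activating receptors tested, 3 rose and 5 fell in IgE cells, and 1 rose and 5 fell in IgG1 cells. The riser in both was Tnfrsf17 (BCMA, the APRIL receptor of plasma cells and 1 of the plasma cell markers). Its means (± SD) were 5.14 ± 0.21 in IgE GC and 9.58 ± 0.08 in IgE PC. They were 4.57 ± 0.26 in GFP-positive IgG1 GC and 6.76 ± 1.21 in IgG1 PC. Tnfrsf17 did not lie above the array median throughout any GC group, so these differences are not sized here. Tnfrsf17 was also higher in IgE PC than in IgG1 PC, by 2.82 ± 0.33 (SE, adjusted p = 0.000408). Over 13 alternatives, 0 to 2 receptors were called higher there, so this call was lost in at least 1 of them. Cd40, the receptor for T cell help, fell by 1.68 ± 0.22 in IgE cells and fell by 2.70 ± 0.26 in IgG1 cells. Tlr9, a sensor of unmethylated DNA, fell by 3.20 ± 0.24 in IgE cells and fell by 2.93 ± 0.29 in IgG1 cells.

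Downstream of the receptors, most of the genes called were lower in PC. Of 9 TRAF, cIAP and linear ubiquitin adaptors, 4 fell and 1 rose in IgE cells and 4 fell in IgG1 cells. Traf5 fell by 2.93 ± 0.33 and by 2.34 ± 0.40, and Traf1, itself a target of NF-kB, by 1.84 ± 0.26 and by 1.96 ± 0.31. In the IKK list, 2 of 9 genes fell in each isotype, and none in IgG1 cells without replicate 1 of GFP-positive IgG1 GC. These were Ikbkb, the catalytic kinase of the classical route (by 1.27 ± 0.23 and by 0.95 ± 0.27), and Map3k14, the kinase NIK of the alternative route (by 0.80 ± 0.19 and by 0.75 ± 0.23).

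The list of known NF-kB target genes held changes in both directions. Of 17 tested, 4 rose and 7 fell in IgE PC against IgE GC, and 3 rose and 8 fell in IgG1 cells. Irf4, a plasma cell factor and also 1 of the plasma cell markers, rose by 3.67 ± 0.27 and by 4.24 ± 0.33. The cytokine gene Lta fell by 3.64 ± 0.47 and by 4.22 ± 0.56. Slamf1, a surface receptor, fell by 4.63 ± 0.34 in IgG1 cells and was 1.93 ± 0.32 higher in IgE PC than in IgG1 PC (adjusted p = 0.00538), while the survival gene Bcl2l1 was 1.25 ± 0.25 lower there (adjusted p = 0.0242). Over the alternatives, 0 to 2 target genes were called higher and 0 to 1 lower between the isotypes, and the lower call was lost with only the PC arrays fitted. The median difference of the list was -0.55 in IgE and -0.75 in IgG1 cells. Cd40, Traf1, Birc3 and Tnfaip3 each stand in 2 of these lists. Of 8 deubiquitinases and other negative regulators, Otud7b rose in IgE cells (0.78 ± 0.26) and Bcl3, a nuclear relative of the inhibitors, fell in IgG1 cells (by 1.80 ± 0.44). Over all genes, 10.2% rose in IgE and 13.1% fell in IgG1 cells. In the alternatives, 0 to 2 of these regulators were called higher in IgE and 0 to 2 lower in IgG1 cells. The Bcl3 call was lost with only the groups compared fitted.

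**Figure D3:**
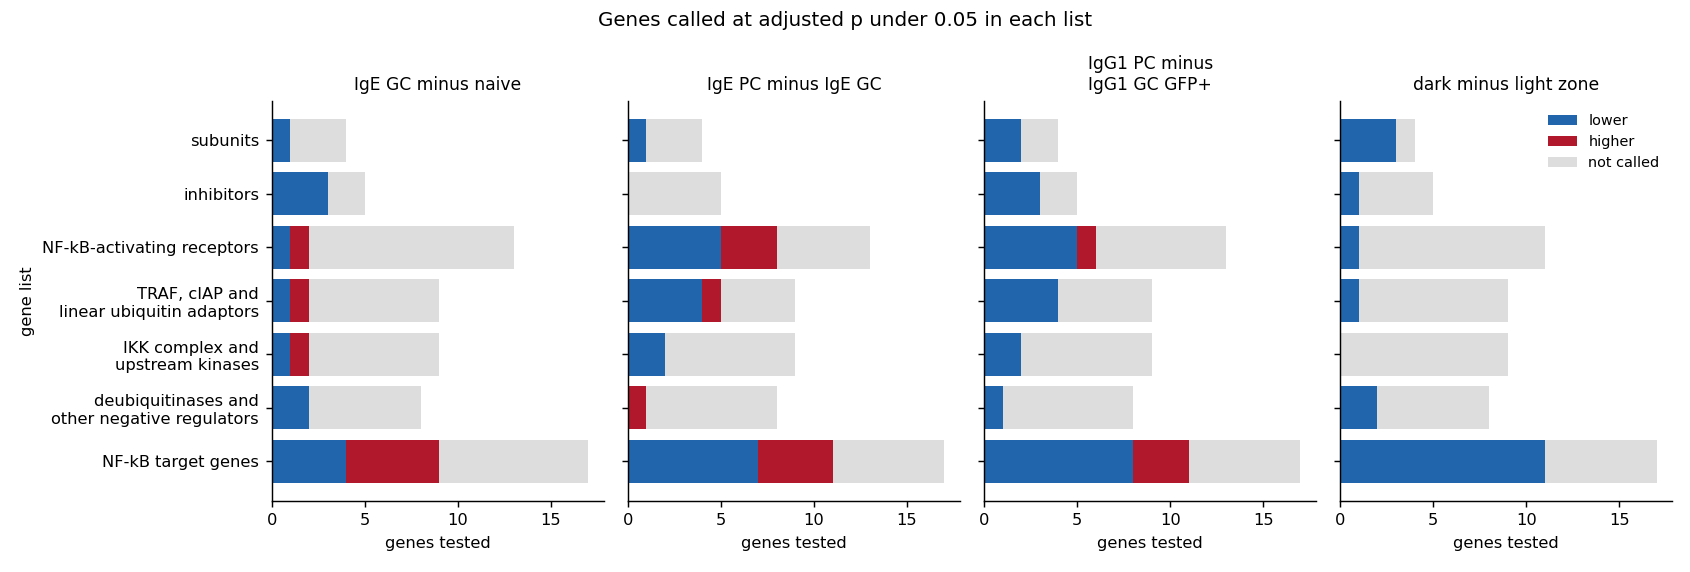
Number of genes tested (x axis) in the 2 member groups and 5 lists of the pathway (y axis), divided into genes called lower, called higher and not called, in 4 comparisons. The target list has genes in both directions in the first 3 panels, and 11 genes lower with none higher between dark and light zone.

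Between naive and GC cells, the member called in all 3 GC groups was Nfkbid. This gene (probe set 10551891), which encodes IkB-NS, read 8.22, 8.08 and 7.99 in naive cells, 7.32, 6.98 and 6.96 in GFP-negative IgG1 GC, 6.67, 6.77 and 7.06 in GFP-positive IgG1 GC, and 6.35, 6.25 and 6.22 in IgE GC. Naive arrays stood above all others, and IgE GC arrays lay below every IgG1 GC array and among those of the plasma cells (5.67 to 6.46). How many of all genes were ordered in this way was not counted. The direct comparison of IgE GC and GFP-positive IgG1 GC, given below, did not call Nfkbid. Nfkbid fell by 1.82 ± 0.20 in IgE GC (3.53-fold, adjusted p = 2.94e-06), by 1.26 ± 0.20 in GFP-positive IgG1 GC (adjusted p = 0.000157) and by 1.01 ± 0.20 in GFP-negative IgG1 GC (adjusted p = 0.00111). It held in each of the 13 alternatives for each of these 3 comparisons.

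Nfkbiz, which encodes IkB-zeta, read 6.97, 7.81 and 7.24 in naive cells and 6.23, 5.86 and 6.41 in IgE GC. It fell by 1.17 ± 0.25 in IgE GC (adjusted p = 0.00213) and by 0.88 ± 0.25 in GFP-positive IgG1 GC (adjusted p = 0.0165), and differed by -0.67 ± 0.25 in GFP-negative IgG1 GC (adjusted p = 0.0527). The call in GFP-positive IgG1 GC was lost without GC replicate 2 or 3 or without naive replicate 2 (adjusted p 0.0777, 0.0622 and 0.0661), and when only these groups were fitted (0.104). In GFP-negative IgG1 GC, Nfkbiz and Nfkb2 were both called without naive replicate 1 (adjusted p 0.0278 and 0.0251).

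In IgE GC, Nfkb2 and Nfkbie were also lower than in naive cells. Nfkb2 fell by 0.99 ± 0.27 (adjusted p = 0.0123), with all 3 IgE GC arrays below the naive values of 7.77, 8.88 and 8.40. Nfkbie fell by 0.79 ± 0.23 (adjusted p = 0.0197) against naive values of 8.16, 8.73 and 8.25. Without naive replicate 2 both calls were lost (adjusted p 0.0508 and 0.0685), and the Nfkbie call also without IgE GC replicate 3 (0.112) or with only these groups fitted (0.0809).

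In all, 4 of 9 members were called lower in IgE GC, 2 in GFP-positive and 1 in GFP-negative IgG1 GC, and none higher. The share of all genes called lower was 7.4%, 6.43% and 9.35% in these comparisons, and the share called higher 19.3%, 16.8% and 20.5%. The 3 comparisons share the naive arrays. The comparisons of PC with GC above used the IgE GC and GFP-positive IgG1 GC arrays again, and shared no array with each other. Naive arrays were also sensitive to scaling: a further quantile normalization moved the median of all genes by -0.14 in IgE GC and by -0.15 in GFP-negative IgG1 GC, and higher calls then made up 49.2%, 51.3% and 48% of all calls in place of 72.3%, 72.3% and 68.6%. Relative to the median of all genes, Nfkbid stood at -1.88 in IgE GC as deposited and at -2.08 after it, and at -1.08 and -1.34 in GFP-negative IgG1 GC. The members called then numbered 6, 6 and 4, all lower.

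Relb differed by -0.58 ± 0.25 in IgE GC (adjusted p = 0.0957) and was called without naive replicate 1 (0.013). Without that array it was called in GFP-positive IgG1 GC too (0.0292).

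Other marker lists also differed between naive and GC cells. The plasma cell list was mostly higher in GC, opposite to these members, and the other lists given here had genes lower in GC. Of 7 genes of naive and recirculating B cells, 5 were lower in each GC group than in naive cells. Of 8 plasma cell genes, 5 were higher and 1 lower in IgE GC, and 4 and 1 in each IgG1 GC group, with sums of 6961 to 9101 in IgE GC and 2387 to 2954 in naive cells. In the macrophage and dendritic cell list, 3, 4 and 4 of 5 genes tested were lower in IgE GC, GFP-positive and GFP-negative IgG1 GC than in naive cells. Its summed linear signal was 2004 to 2227 in naive cells and 605 to 1797 in the GC groups, and 3 of 9 genes lay above the array median on all naive arrays. Tyrobp and Siglech were among those 3, with naive means (± SD) of 8.43 ± 0.28 and 6.70 ± 0.96. Lyz2, Csf1r, Itgam, Itgax, Fcer1g and Cd14 were not. The stromal and endothelial list summed to 1182 to 2012 in naive cells and to 550 to 800 in GC cells, with 2 to 3 of 7 genes lower. The T cell list summed to 428 to 607 in naive cells and 272 to 504 in GC cells, with 2 to 4 of 6 genes lower. The part of these markers in the result was not tested.

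Among the pathway genes, the receptor list held few changes on GC entry. Over all genes, 19.3% were called higher and 7.4% lower in IgE GC. The shares were 16.8% and 6.43% in GFP-positive and 20.5% and 9.35% in GFP-negative IgG1 GC. Tlr7, an endosomal sensor of RNA, was the only 1 of 13 receptors to fall (-2.36 ± 0.43 in IgE GC, -2.48 ± 0.43 in GFP-positive and -2.73 ± 0.43 in GFP-negative IgG1 GC). In IgE GC, Myd88, the adaptor of Toll-like receptors that stands in the same list, rose by 1.13 ± 0.31. There, Traf1 rose by 1.21 ± 0.28 and Birc3 fell by 0.78 ± 0.23 among 9 adaptors. Among 9 genes of the IKK list, Tab2, an adaptor of the kinase TAK1, rose by 1.04 ± 0.30. The IKK-related kinase Ikbke fell by 0.97 ± 0.34. Over the alternatives in IgE GC, 0 to 1 receptors, 0 to 2 adaptors and 0 to 1 IKK list genes were called higher. The counts called lower were 1 to 2, 0 to 3 and 0 to 2. The rises of Myd88, Traf1 and Tab2 were thus each lost in some alternative. Of 17 target genes, 5 rose and 4 fell in IgE GC, among them Gadd45b (2.59 ± 0.48) and Lta (1.90 ± 0.50), which rose, and the homing receptor Ccr7, which fell by 1.89 ± 0.39. The counts were 6 and 2 in GFP-positive and 5 and 2 in GFP-negative IgG1 GC. Over the alternatives, 1 to 5 target genes were higher and 2 to 6 lower in IgE GC, 2 to 6 and 2 to 5 in GFP-positive, and 3 to 6 and 1 to 4 in GFP-negative IgG1 GC.

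IgE GC and GFP-positive IgG1 GC cells were compared directly. No member and no gene passed the test (0% of 12098 in limma), while 264 genes, 2 of the 9 members among them, had an unadjusted p under 0.05. Nfkb2 differed by -0.58 ± 0.27 and Nfkbid by -0.56 ± 0.20, both with an adjusted p of 1. Arrays of the 2 groups did not overlap for either gene. The share of all genes without overlap was not counted here, so no conclusion is drawn from that. No gene passed between the GFP classes of IgG1 GC cells either (0%), with 265 genes and 0 members at an unadjusted p under 0.05. The arrays were not paired by replicate number in this fit. Over 13 alternatives, a replicate block among them, 0 members were called between these classes. The widest member difference there was in Nfkbie (-0.47 ± 0.23).

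Against naive cells, plasma cells were lower in 6 of the 9 members in both isotypes. Rel, Relb, Nfkb2, Nfkbie, Nfkbid and Nfkbiz were called lower and none higher, where 14.1% of all genes were lower and 23% higher in IgE PC, and 12.2% lower and 17.1% higher in IgG1 PC. Further quantile normalization changed the share of higher among all calls in IgE PC from 62% to 47.9%. In IgE PC the falls ran from 0.96 ± 0.25 (Nfkb2) to 3.77 ± 0.21 (Rel), and in IgG1 PC from 1.26 ± 0.28 (Relb) to 5.00 ± 0.25 (Rel). The size for Rel in IgG1 PC is again limited by the low end of the scale. Nfkbiz (5.60 and 5.58), Nfkbie replicate 2 (5.57) and Relb replicate 1 (5.36) in IgG1 PC also lay near the array medians of 5.35. Their sizes may be limited too. Relb (probe set 10560575) read 6.45, 7.40 and 7.20 in naive cells, 5.81, 6.09, 5.87 and 6.26 in IgE PC, and 5.36 and 6.16 in IgG1 PC. The Relb call in IgG1 PC was lost without PC replicate 1 (adjusted p = 0.0631) and with only these groups fitted (0.077). Nfkbia was called in IgG1 PC without that same array (0.0499).

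Rela and Nfkbib were not called in any of the 16 comparisons as deposited. Rela (probe set 10460631) is the ubiquitous activating subunit. Its group means (± SD) in the first experiment ran from 8.51 ± 0.14 (IgE PC, n = 4) to 8.95 ± 0.18 (IgE GC, n = 3), a range of 0.44 log2 units. Neighbouring groups overlapped at every step of that order. In the second experiment the means (± SD) of Rela ran from 8.32 ± 0.30 (GFP-negative DZ) to 8.75 ± 0.08 (GFP-positive DZ). GFP-negative DZ did not overlap the next group, GFP-positive LZ. Means (± SD) of Nfkbib, a classical inhibitor, ranged in the first experiment from 8.76 ± 0.31 (GFP-positive IgG1 GC) to 9.30 ± 0.19 (IgE PC), again with overlap at every step. In the second they ranged from 8.51 ± 0.16 (GFP-positive LZ) to 8.98 ± 0.35 (GFP-negative DZ). After further quantile normalization Rela was called lower in GFP-negative IgG1 GC (-0.56, adjusted p = 0.0386) and IgE PC (-0.63, 0.00986) than in naive cells, and Nfkbib was called lower than naive in IgE GC and GFP-positive IgG1 GC and higher in IgE PC than IgE GC (adjusted p 0.0458, 0.0335 and 0.0499).

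**Figure D4:**
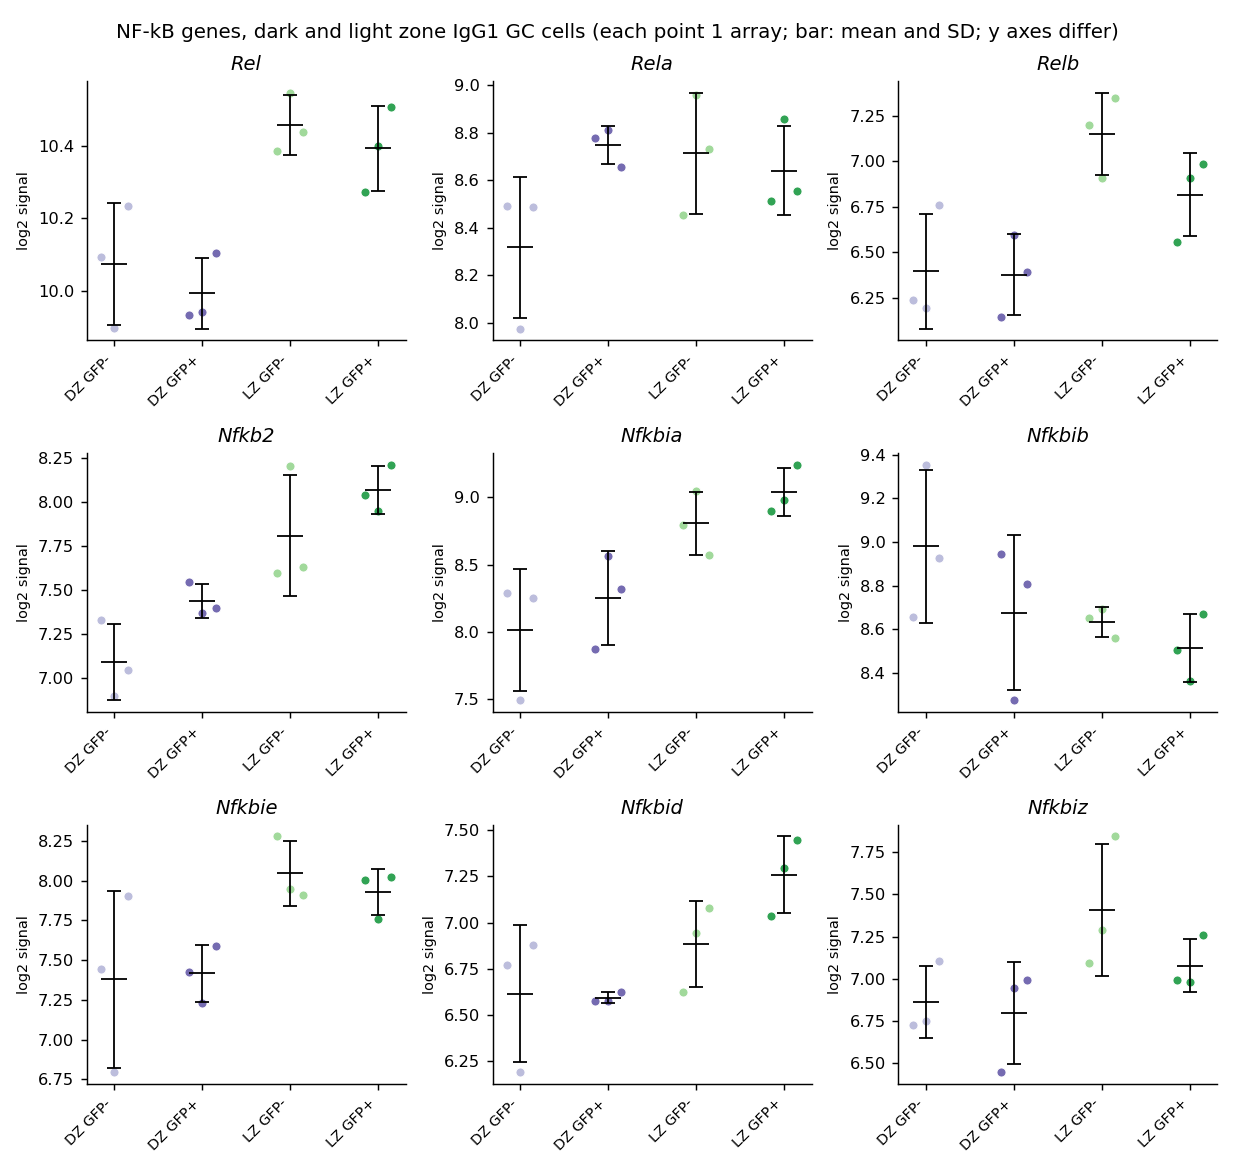
Log2 signal (y axis, a separate scale in each panel) of the 9 measured members in the 4 groups of dark and light zone IgG1 GC cells. Each point is 1 array, the long bar is the group mean and the whiskers are the SD. For Rel, Nfkb2 and Nfkbia all 6 DZ arrays lie below all 6 LZ arrays.

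Within the germinal centre, Rel, Relb, Nfkb2 and Nfkbia were lower in the dark zone, where cells divide, than in the light zone, where they meet antigen and T cell help. Over both GFP classes these were the 4 of 9 members called lower in DZ, and none was called higher, where 3% of all genes were called lower and 3.92% higher. The median difference was -0.47 over the members and 0.00 over all 11050 genes tested. After further quantile normalization 6 members were called, all lower, and higher calls made up 45.4% of all calls in place of 56.7%.

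Nfkb2 read 7.55, 7.37 and 7.40 in GFP-positive and 7.33, 6.90 and 7.05 in GFP-negative DZ cells, against 8.04, 7.95 and 8.21 and 7.60, 8.21 and 7.63 in LZ cells of the same classes. It fell by 0.67 ± 0.13 in DZ (1.6-fold, adjusted p = 0.00743). Nfkbia (probe set 10400405) read 7.88, 8.57 and 8.32 and 8.29, 7.49 and 8.26 in DZ cells, GFP-positive first, against 8.90, 8.98 and 9.24 and 8.80, 9.05 and 8.57 in LZ cells. It fell by 0.79 ± 0.17 (1.73-fold, adjusted p = 0.0146). Both calls held in all 17 alternatives.

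Rel fell by 0.39 ± 0.09 (adjusted p = 0.0279), from 10.27 to 10.54 in LZ (median 10.42) to 9.90 to 10.23 in DZ (median 10.02). Relb fell by 0.60 ± 0.14 (adjusted p = 0.0232), with DZ arrays from 6.15 to 6.76 and LZ arrays from 6.56 to 7.35. These calls were less steady, and each was lost in 6 of 12 fits without 1 array. The arrays that Rel depended on were, among GFP-positive cells, DZ 1 and 2 and LZ 2 and 3, and among GFP-negative cells, DZ 1 and LZ 2, by replicate number (adjusted p 0.0566 to 0.0669). For Relb they were DZ 1 and LZ 2 and 3 among GFP-positive cells, and DZ 1 and LZ 1 and 3 among GFP-negative cells (0.05 to 0.0598).

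DZ arrays lay below LZ arrays without overlap, 6 against 6, for 3 of 9 members (Rel, Nfkb2 and Nfkbia), against 2.31% of all genes. The remaining inhibitors missed the threshold: Nfkbie at -0.59 ± 0.17 (adjusted p = 0.0537), Nfkbid at -0.47 ± 0.14 (0.0589) and Nfkbiz at -0.41 ± 0.15 (0.127). Without replicate 3 of GFP-negative DZ, Nfkbie (0.0152) and Nfkbid (0.05) passed it, and without replicate 1 of GFP-negative LZ, Nfkbid did (0.0492). Rela differed by -0.14 ± 0.13 and Nfkbib by 0.25 ± 0.14, neither called.

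Taken separately, neither GFP class gave a call among the members in limma. In GFP-positive cells 0.742% of all genes were called lower and 0.48% higher, and 6 of 9 members had an unadjusted p under 0.05, as did 1429 genes. In GFP-negative cells the shares were 0.995% lower and 1.59% higher, where 7 members and 1896 genes had an unadjusted p below 0.05, and further quantile normalization changed the share of higher calls from 61.5% to 45%. Nfkbia differed by -0.79 ± 0.24 in each class. Relb in GFP-negative cells passed without DZ replicate 3 (adjusted p = 0.0451). No gene passed the test of the difference between the classes (0%, 543 genes and 0 members unadjusted), and none passed between the GFP classes over both zones (0%, 519 genes and 1 member unadjusted).

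The NF-kB target list was lower in the dark zone as well. Of 17 genes tested, 11 were lower in DZ and none was higher, with a median of -0.62 against 0.00 over all genes. Irf4 fell by 1.28 ± 0.26 (adjusted p = 0.0102), Cd83, a surface marker of light zone cells, by 1.07 ± 0.13 (0.000444) and the cytokine subunit gene Ebi3 by 1.06 ± 0.25 (0.0242). The count lay between 7 and 11 over 17 alternatives and was 7 without GFP-positive LZ replicate 2. Cd83 and Cd40 also belong to the light zone marker list, which was lower in DZ in 6 of 6 genes.

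In the other pathway lists few genes differed between zones, and those called were lower in DZ. Of the genes named next, Tnfaip3, Cd40 and Birc3 also stand in the target list and are counted there. Among negative regulators, Bcl3 fell by 1.04 ± 0.21 and Tnfaip3, the deubiquitinase A20, by 0.58 ± 0.16, as 2 of 8 tested. Cd40 fell by 0.72 ± 0.15 as 1 of 11 receptors, and Birc3, the ubiquitin ligase cIAP2, by 0.62 ± 0.12 as 1 of 9 adaptors. In the IKK list 0 of 9 genes were called. The list of naive and recirculating B cell genes was lower in DZ in 3 of 7 genes, with sums of 3573 to 4320 in DZ and 5898 to 7832 in LZ. Of 6 plasma cell genes tested, 4 were higher and 1 lower in DZ, with sums of 5939 to 7517 in DZ and 3979 to 5333 in LZ. In the stromal list 1 of 5 genes was lower (578 to 699 in DZ, 616 to 915 in LZ), and no gene of the T cell list was called (313 to 511 and 390 to 600). Their part in the result was not tested.

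The genes whose pattern was most like that of each member were sought among 11002 genes tested in both experiments, by the lower of the Pearson correlations over 18 and 12 arrays. These arrays fall into groups that differ, so the values describe the order of groups as well as single arrays. For Rel they were Bcl2a1c (0.947 and 0.96), a BCL2-family survival gene, Hvcn1 (0.952 and 0.926), a proton channel of B cells, and Lrmp (0.991 and 0.926). For Nfkbid the closest was Kdm6b (0.864 and 0.912), a histone demethylase, and for Relb Ephx1 (0.859 and 0.862). Nfkb2 and Nfkbie shared Fcmr, the receptor for IgM, among their closest genes (0.827 and 0.817, and 0.894 and 0.833). For Rela the highest was Cep68 (0.7 and 0.694), for Nfkbia Dnmt3a (0.696 and 0.794), for Nfkbib Stx18 (0.722 and 0.782) and for Nfkbiz Ephx1 (0.878 and 0.805).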

How the data were processed

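RNA of sorted B cell pools (2 ng, SPIA amplification) was hybridised to Affymetrix mouse gene arrays. Per the submitters' processing notes, which name RMA and R 2.15.2, the authors deposited log2 values. Joint normalization of the experiments is not given in the sources used, so each experiment was tested on its own. No uncorrected intensities were used here. Of 34760 probe sets, 21640 had 1 gene symbol, 1321 several and 11799 none. A gene took its probe set with the highest mean. Genes above the array median on at least 2 (first experiment) or 3 arrays (second) were tested.

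Groups were compared with limma 3.58.1 in R 4.3.3 (lmFit and eBayes on all arrays of an experiment, Benjamini-Hochberg over all tested genes, 12098 and 11050), and genes were called at an adjusted p under 0.05. The number of arrays limits the precision. The share of all genes without overlap was counted only for DZ below LZ, so overlap elsewhere is description only. The procedure was tested on simulated data. The members and lists were chosen with earlier results of these data known. All measured members were named, with up to 3 called genes of each pathway list and comparison and up to 3 of the most similar genes per member. The pathway lists were IKK kinases, TRAF adaptors, negative regulators, receptors and target genes. A further list fixed with them is not reported here. Replicate numbers met the rule for pairing only between the GFP classes of IgG1 GC (correlations of deviations 0.109 to 0.154 over 3 pairs). Alternatives changed the filter, scaling, variance model, probe set rule, block, groups fitted and arrays included. Figures were drawn with matplotlib 3.10.9.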

Additional observations from a re-analysis of the deposited data

Results flagged for a closer look

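Single arrays were compared with the rest of their group in 27 groups of 4 or 6 arrays. Each group was 1 gene in IgE PC, or in DZ or LZ cells over both GFP classes. By Dixon's criterion at the 95% level 2 stood apart, where chance alone gives about 1 in 20. Rela in IgE PC had 1 array at 8.30, below 8.56, 8.57 and 8.60. Nfkbiz in LZ cells had 1 array at 7.84, a GFP-negative one, above 7.29 for the next. Rela was not called in IgE PC against IgE GC, nor Nfkbiz in DZ against LZ.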

How the results depend on the processing

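No member reversed a called direction in any alternative. Dropping the filter, a trended robust variance and averaging probe sets changed no call. Further quantile normalization gave 6 members called in GFP-positive IgG1 GC against naive, 4 in GFP-negative IgG1 GC against naive, 2 in IgE PC against IgE GC and 2 in DZ against LZ of GFP-negative cells. Fitting only the groups compared gave 1 in GFP-positive IgG1 GC against naive, 3 in IgG1 PC against GC and 0 in IgE PC against IgG1 PC, where genes called overall went from 116 to 2. A replicate block gave 0 in IgE PC against IgG1 PC (Rel adjusted p = 0.0579, Nfkbie 0.0688) and 1 in DZ against LZ of GFP-negative cells; it also lost Nfkbiz in IgG1 PC against GC (0.06) and added Nfkbie and Nfkbiz in DZ against LZ (0.0292 and 0.0414). The numbers met the rule for pairing only between the GFP classes of IgG1 GC. Over all groups, these included, 9 of 40 and 3 of 18 same-number pairs correlated above 0.1, with medians of 0.06 and 0.085. In the second experiment the values ran from 0.002 to 0.199. Such weak values cannot decide whether other same-number arrays share a sort, which the labels do not say. Without the 2 arrays that stood apart, GFP-negative IgG1 GC against naive gave 3. Leaving out 1 array gave 2 to 5 members in IgE GC, 1 to 3 in GFP-positive and 1 to 3 in GFP-negative IgG1 GC against naive, 1 to 2 in IgE PC against IgE GC, 4 in IgG1 PC against GC, 6 in each PC group against naive, 0 to 2 in IgE PC against IgG1 PC, 2 to 6 in DZ against LZ, 0 to 1 in its GFP-negative cells and 0 in the other comparisons. Over all genes, fitting only the groups compared moved the calls from 3230 to 2049, 2813 to 1524 and 3606 to 2070 (IgE, GFP-positive and GFP-negative IgG1 GC against naive), 3540 to 1678 (IgG1 PC against naive), 11 to 1 (interaction), and 135 to 18 and 286 to 151 (zones in GFP-positive and GFP-negative cells). The block moved IgE PC against IgG1 PC to 72 and the interaction to 5. The cause of these changes was not tested.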
